A study of Homo sapiens with 16 samples.

Results

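This section follows 43 human genes that encode heat shock proteins and chaperones of the endoplasmic reticulum (ER) through differentiation of embryonic stem cells under bone morphogenetic protein 4 (BMP4). The rule that picks the genes is a list of names and uses no measured value, although the list was drawn up with earlier results of these data known. They comprise 17 genes listed as cytosolic chaperones, 6 subunits of the cytosolic CCT chaperonin, 5 mitochondrial chaperones and 15 chaperones and folding enzymes of the ER. HSPB11, among the 17, is a chaperone by name only and is counted with the chaperones throughout. Each gene was read from its brightest probe. All 43 have a named probe among the 20046 genes with a named probe on the array, HSPB11 under its current symbol IFT25. Of these, 42 passed the filter on dim probes, among 13395 genes that passed. PDIA3, a disulfide isomerase that works with the ER lectins, was above the detection floor on 0 of 16 arrays and was not tested.

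The cells were of the H1 line, a human embryonic stem cell line, grown on Matrigel in mTeSR medium. In the treated arm they received BMP4 at 100 ng/ml, and in the other arm they received none. Total RNA from each arm was hybridised to 1 bead array on each of 8 days, days 0 to 7, which gives 8 arrays with BMP4 and 8 untreated. The labels call the first array of the treated arm day 0 and do not say whether BMP4 had been added by then, nor how many cultures the arrays came from.

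Chaperones hold unfolded proteins and help them fold, and each compartment of the cell has its own set. In the cytosol, HSP70 proteins bind exposed stretches of a client with the help of J proteins and nucleotide exchange factors, HSP90 proteins finish the folding of kinases and receptors, small heat shock proteins hold clients against aggregation, and the ring-shaped CCT chaperonin folds actin and tubulin. Mitochondria import proteins with their own HSP70 and fold them in the HSPD1 and HSPE1 chamber, while the ER folds secreted and membrane proteins with BiP (HSPA5), its own HSP90 (HSP90B1), sugar-binding lectins and disulfide isomerases. Several of the cytosolic genes, though not all, are known targets of heat shock factor, and many of the ER genes are targets of the unfolded protein response.

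As there was 1 array per arm and day, neighbouring days were pooled: the early effect is BMP4 minus untreated over days 1 to 3 (3 arrays per arm) and the late effect is the same over days 4 to 7 (4 arrays per arm). All levels are log2 of the background-corrected intensity plus 16, all changes are differences on that scale, and levels of different genes cannot be compared. A gene was called at an adjusted p under 0.05 in 1 limma fit of all 16 arrays, adjusted by Benjamini-Hochberg over all 13395 genes. Each p-value weighs a change against the scatter of the arrays within a window, which mixes days and may in part be technical. In bulk RNA, fewer cells of a type and less RNA per cell cannot be told apart.

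The labelled cell type carried its markers. Of 8 pluripotency markers 7 passed the filter (TDGF1 did not), and their summed log2 level lay between 76.0 and 81.3 with BMP4 on days 1 to 3 and between 69.0 and 73.5 with BMP4 on days 4 to 7, against 79.6 to 81.1 on untreated days 1 to 7. The sum of 9 markers of differentiated cells lay between 76.3 and 90.2 with BMP4 on days 1 to 3 and between 88.3 and 92.7 on days 4 to 7, against 55.3 to 59.2 on untreated days 1 to 7. In the late window 6 of the 7 pluripotency markers fell and all 9 markers of differentiated cells rose, so every late result below stands beside this change in cell state, and its part in the chaperone results was not tested. The arms already differed on day 0, by a median of 0.13 over the 42 chaperones (range -0.85 to 1.40) and of 0.09 over all tested genes, on 1 array each. Results are therefore also given with the day 0 difference subtracted, a stricter comparison in which 1 array per arm carries the correction. With arrays centred on housekeeping genes 40.1% of the early calls over all genes were higher with BMP4, against 54.8% with the deposited normalization. Of 17 tested housekeeping genes 4 rose and 4 fell early, against 16.1% and 13.3% of all genes. Late, 5 rose and 3 fell, against 27.3% and 26.6%, so some genes behind this centring changed with BMP4 themselves.

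In the late window 10 of the 42 chaperones rose with BMP4 and 15 fell. Over all tested genes 27.3% rose and 26.6% fell, so the share of chaperones that rose was near the background. The share that fell was above it by an amount that was not tested. The same background shares apply to the late counts of each compartment and family below. By compartment, in the ER 7 of 14 genes rose and 2 fell, with a median late effect of 0.54. In the cytosol 3 of 17 rose and 7 fell (median -0.24), in the CCT chaperonin 0 of 6 rose and 2 fell (median -0.30), and in mitochondria 0 of 5 rose and 4 fell (median -0.42). The median over all tested genes was 0.00355. These medians carry no test of their own, and their sign was the same under each alternative processing tried.

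Early effects were fewer. On days 1 to 3, 4 chaperones rose and 8 fell, against a background of 16.1% rising and 13.3% falling. The medians of the ER (-0.03), the cytosol (-0.06) and the CCT chaperonin (0.03) lay close to that of all tested genes, which was 0.04. The mitochondrial median was lower, at -0.13. The signs of the ER, cytosolic and CCT medians changed with the processing, for example to 0.02, 0.01 and -0.12 when a gene's detected probes were averaged. With that averaging the mitochondrial median was -0.47, against 0.02 over all genes. With housekeeping centring it was -0.23, against -0.06 over all genes. After subtraction of the day 0 difference 0 chaperones passed early in limma, against 1.05% of all genes higher and 1.3% lower, while 6 of 42 chaperones and 2433 of 13395 genes were at an unadjusted p under 0.05. Late, 5 chaperones rose and 6 fell after that subtraction, against a background of 8.92% and 10.6%. The 5 were HSPB8, HSPB11, CRYAB, SDF2L1 and P4HB, and the 6 were HSPA4, DNAJB6, CCT4, CCT5, HSPA9 and HSPD1.

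**Figure D1:**
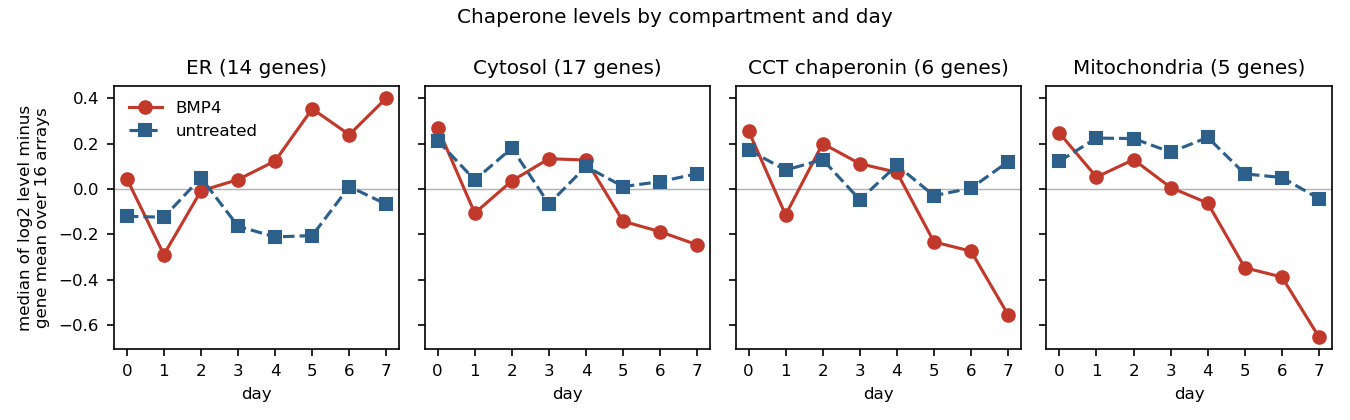
Median over the genes of each compartment of the log2 level, centred on each gene's own mean over the 16 arrays, by day, for BMP4 and untreated arrays. The ER line with BMP4 climbs to 0.40 on day 7, against -0.07 untreated, while the mitochondrial line with BMP4 drops to -0.65 on day 7, against -0.04 untreated.

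Day by day, the median difference of the ER genes, BMP4 minus untreated, was 0.18 on day 0, -0.22 on day 1, -0.07 on day 2, 0.26 on day 3, and then 0.38, 0.57, 0.43 and 0.58 on days 4 to 7. The mitochondrial median was 0.31 on day 0, -0.11, -0.13 and -0.16 on days 1 to 3, and -0.29, -0.35, -0.61 and -0.61 on days 4 to 7. The ER and mitochondrial medians had the same sign on days 0 to 2 and opposite signs from day 3 on. On day 7, 13 of 14 ER genes were higher with BMP4, whereas 0 of 5 mitochondrial and 0 of 6 CCT genes were. The CCT median stayed between -0.17 and 0.13 on days 1 to 4 and was -0.16, -0.30 and -0.70 on days 5 to 7. The cytosolic median was 0.36 on day 3 and otherwise between -0.27 and -0.10 on days 1 to 7. The median of all tested genes stayed between -0.01 and 0.04 on those days.

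**Figure D2:**
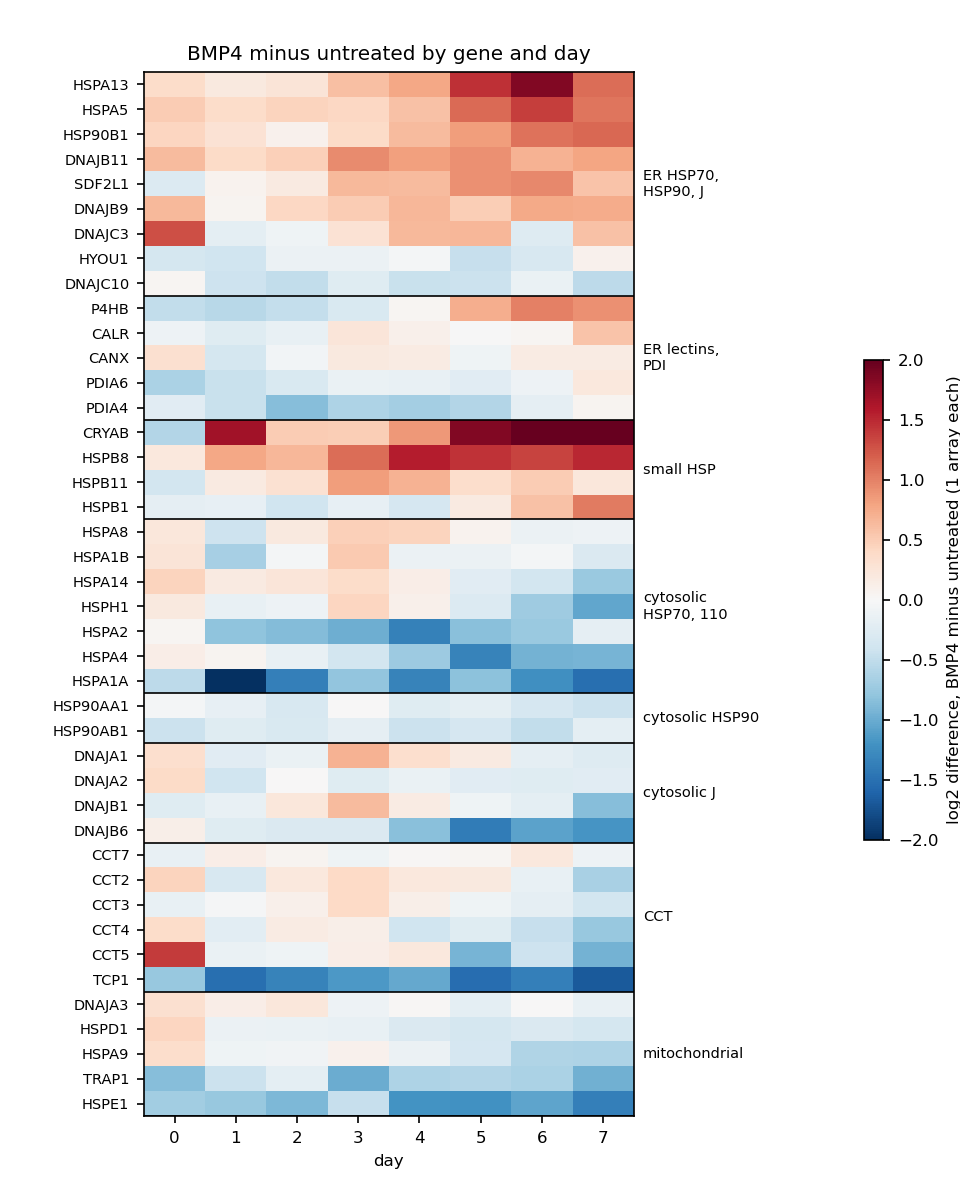
BMP4 minus untreated log2 difference of each of the 42 tested chaperones on each day, grouped by compartment, with the colour scale ending at -2 and 2. CRYAB on days 6 and 7 (2.29 and 3.40) and HSPA1A on day 1 (-2.10) lie beyond the scale. HSPA5, HSP90B1, HSPA13, DNAJB9, DNAJB11 and HSPB8 are higher with BMP4 on each of the 8 days. HSPE1, TCP1, HSPA1A, HSP90AB1 and TRAP1 are lower on each.

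The ER lumenal chaperones held the larger part of the rise. Of 9 genes 6 rose late (HSPA13, HSPA5, HSP90B1, DNAJB11, SDF2L1 and DNAJB9), 1 fell (DNAJC10), and the median late effect was 0.77. HSPA5, or BiP, the ER's HSP70 and the sensor of its folding load, had log2 levels of 9.13, 9.58, 9.58 and 9.60 with BMP4 on days 4 to 7, against 8.54, 8.45, 8.20 and 8.52 untreated. The arms did not overlap, and day 4 was the lowest of the treated days. It was 2.06-fold higher late (log2 change 1.04, SE 0.12, adjusted p = 2.37e-06). Its early levels were 8.63, 8.85 and 8.81 with BMP4, against 8.26, 8.40 and 8.40 untreated, an early rise of 0.41 (SE 0.14, adjusted p = 0.0395). That early call was lost in 6 of the 14 fits that each left out 1 array (BMP4 day 2 or 3, untreated day 1, 2, 3 or 5), with adjusted p from 0.0508 to 0.128. It was also lost with arrays centred on housekeeping genes (adjusted p = 0.119), with days 1 to 2 alone (adjusted p = 0.144) and with day as a block (adjusted p = 0.0531).

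HSP90B1, the ER's HSP90, had levels of 12.77, 12.89, 13.14 and 13.33 with BMP4 on days 4 to 7, against 12.14, 12.06, 12.06 and 12.18 untreated. The 4 untreated arrays lay within a narrow band and each treated array lay above it. The change was 1.90-fold (log2 change 0.93, SE 0.10, adjusted p = 1.04e-06), and early it was 0.26 (SE 0.12, adjusted p = 0.115). HSPA13, an HSP70-like ATPase of the ER, had 7.02, 7.59, 8.05 and 7.91 with BMP4 late, against 6.25, 6.13, 6.20 and 6.80 untreated. Both arms spread widely but did not overlap, and the late change was 2.46-fold (log2 change 1.30, SE 0.21, adjusted p = 4.67e-05). A second, dim probe of HSPA13 gave -0.40.

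DNAJB11, a J protein that delivers clients to BiP, stood at 11.49, 11.42, 11.40 and 11.44 with BMP4 on days 4 to 7, against 10.67, 10.51, 10.71 and 10.65 untreated. Earlier, on days 1 to 3, it stood at 11.004, 11.35 and 11.55 with BMP4, against 10.62, 10.87 and 10.60 untreated. In both windows the treated arrays lay above all untreated ones, 1.74-fold late (log2 change 0.80, SE 0.11, adjusted p = 7.21e-06) and 1.52-fold early (0.61, SE 0.12, adjusted p = 0.0014). SDF2L1, a partner of the lumenal J proteins, rose late by 0.77 (SE 0.14, adjusted p = 1.61e-04), with means of 10.74 ± 0.08 with BMP4 and 9.97 ± 0.21 untreated (SD, n = 4 each). DNAJB9, a J protein that restrains the stress sensor IRE1, rose late by 0.67 (SE 0.17, adjusted p = 0.00303). DNAJC10, a J protein that reduces disulfide bonds, fell by 0.39 late (SE 0.11, adjusted p = 0.00661) and by 0.38 early (SE 0.13, adjusted p = 0.0304). With the mean of its detected probes neither passed (late -0.23, adjusted p = 0.161, early -0.36, adjusted p = 0.0946). The early call was also lost with days 1 to 2 alone (adjusted p = 0.0612) and without BMP4 day 1, 2 or 3 or untreated day 1 or 2 (adjusted p from 0.0546 to 0.105). DNAJC3, a J protein read near the detection floor (above it on 15 of 16 arrays), had a late change of 0.41 (adjusted p = 0.0524), which passed without BMP4 day 1, BMP4 day 6 or untreated day 6 (adjusted p from 0.0214 to 0.0435) and under several other settings (adjusted p from 0.0374 to 0.0486). HYOU1, an exchange factor for BiP, had -0.19 (adjusted p = 0.236).

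After subtraction of the day 0 difference SDF2L1 alone of these 9 passed late, at 1.04 (adjusted p = 0.026). On day 0 HSPA5 was higher in the BMP4 arm by 0.50, HSP90B1 by 0.44, DNAJB11 by 0.63, DNAJB9 by 0.64 and HSPA13 by 0.36. Their late changes less that difference were 0.54 (adjusted p = 0.182), 0.49 (0.139), 0.17 (0.656), 0.02 (0.976) and 0.94 (0.160). DNAJC10 then stood at -0.43 (adjusted p = 0.232).

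Promoter sequences of the ER genes are shown here because several of these genes rose late and ER chaperone genes are known for a shared promoter element. The sequences are RefSeq's for GRCh38.p14, 250 bases before to 50 bases after each gene's start, and 40 of the 43 genes matched an entry. HSPA14, CRYAB and PDIA3 did not. Searched on both strands were the ER stress response element (CCAAT, any 9 bases, CCACG), its shorter second form (ATTGG, any 1 base, CCACG) and the heat shock element (GAA, any 2 bases, TTC, any 2 bases, GAA, or the same with TTC and GAA exchanged), all chosen with the results known. No match of 1 element overlapped a match of another. The ER stress response element stands in 4 of 14 ER promoters (28.6%), those of HSPA5, HSP90B1, CALR and CANX, against 22 of all 27305 promoters (0.0806%). The second form stands in 2 of 14 (14.3%), HYOU1 and SDF2L1, against 15 of all promoters (0.0549%). The element and its second form were searched because ER chaperone genes are known for them. Their higher share in these promoters could thus be foreseen and is no independent result. Capitals mark the elements, on either strand, in the sequences below. HSPA5 lies at chr9:125241294-125241593 on the minus strand, HSP90B1 at chr12:103930160-103930459 on the plus strand, SDF2L1 at chr22:21642052-21642351 on the plus strand, CALR at chr19:12938359-12938658 on the plus strand, CANX at chr5:179698679-179698978 on the plus strand and HYOU1 at chr11:119057156-119057455 on the minus strand.
HSPA5: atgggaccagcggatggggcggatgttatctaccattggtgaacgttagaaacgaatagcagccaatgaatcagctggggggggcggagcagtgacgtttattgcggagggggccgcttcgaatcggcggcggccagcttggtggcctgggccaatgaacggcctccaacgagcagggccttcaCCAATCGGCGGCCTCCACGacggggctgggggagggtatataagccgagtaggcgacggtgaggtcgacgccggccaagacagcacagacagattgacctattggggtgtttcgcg
HSP90B1: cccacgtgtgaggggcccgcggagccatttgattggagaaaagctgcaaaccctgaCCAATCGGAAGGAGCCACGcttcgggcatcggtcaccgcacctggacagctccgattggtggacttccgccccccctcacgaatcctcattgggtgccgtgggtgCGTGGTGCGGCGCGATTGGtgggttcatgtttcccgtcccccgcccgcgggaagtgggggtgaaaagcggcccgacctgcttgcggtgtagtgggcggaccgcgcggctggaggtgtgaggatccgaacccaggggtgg
SDF2L1: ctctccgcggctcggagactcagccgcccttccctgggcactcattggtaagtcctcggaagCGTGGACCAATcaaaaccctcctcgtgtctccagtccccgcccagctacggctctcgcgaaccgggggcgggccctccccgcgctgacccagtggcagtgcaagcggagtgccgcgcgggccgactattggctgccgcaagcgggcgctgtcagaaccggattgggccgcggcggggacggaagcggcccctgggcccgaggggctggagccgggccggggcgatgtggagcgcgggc
CALR: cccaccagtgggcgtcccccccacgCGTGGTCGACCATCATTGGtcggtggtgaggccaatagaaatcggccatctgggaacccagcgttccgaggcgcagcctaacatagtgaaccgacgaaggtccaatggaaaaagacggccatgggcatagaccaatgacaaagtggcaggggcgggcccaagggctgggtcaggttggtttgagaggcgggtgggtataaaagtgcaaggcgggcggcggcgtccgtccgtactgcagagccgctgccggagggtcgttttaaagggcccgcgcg
CANX: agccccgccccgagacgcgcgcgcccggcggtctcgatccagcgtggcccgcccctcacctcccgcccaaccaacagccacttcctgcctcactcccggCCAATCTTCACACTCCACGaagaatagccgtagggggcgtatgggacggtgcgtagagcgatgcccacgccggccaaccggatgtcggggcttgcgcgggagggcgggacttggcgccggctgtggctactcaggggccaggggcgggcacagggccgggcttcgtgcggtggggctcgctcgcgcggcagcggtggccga
HYOU1: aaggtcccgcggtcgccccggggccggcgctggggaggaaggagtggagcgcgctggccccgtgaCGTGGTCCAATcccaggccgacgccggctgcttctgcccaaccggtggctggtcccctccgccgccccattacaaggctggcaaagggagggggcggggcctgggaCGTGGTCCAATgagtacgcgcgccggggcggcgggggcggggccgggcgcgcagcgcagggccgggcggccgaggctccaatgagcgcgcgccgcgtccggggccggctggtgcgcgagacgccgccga

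HSP90B1 and HYOU1 each hold 2 copies. Of the 6 genes, HSPA5, HSP90B1 and SDF2L1 rose late, while CALR (0.17, adjusted p = 0.288), CANX (0.10, adjusted p = 0.451) and HYOU1 did not pass. HSPA13, DNAJB9, DNAJB11 and P4HB rose late without either form in this window. A match is a description of letters, not a bound site or a cause.

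Among the lectins and disulfide isomerases of the ER, 1 of 5 tested genes rose late (P4HB) and 1 fell (PDIA4), with a median of 0.10. Neither share was above that of all tested genes, of which 27.3% rose and 26.6% fell. P4HB, the ER's protein disulfide isomerase and a subunit of collagen prolyl hydroxylase, had levels of 11.76, 12.04, 12.29 and 12.53 with BMP4 on days 4 to 7, against 11.73, 11.31, 11.28 and 11.61 untreated. All 4 treated arrays lay above the untreated ones, by 0.03 on day 4 and by 0.73 to 1.00 on days 5 to 7. The late rise was 1.59-fold (log2 change 0.67, SE 0.14, adjusted p = 5.45e-04) and was 1.16 after subtraction of day 0 (adjusted p = 0.0155). Early it pointed the other way, at 11.07, 11.21 and 11.29 with BMP4, against 11.62, 11.68 and 11.60 untreated, a fall of -0.44 (SE 0.16, adjusted p = 0.0451). P4HB already stood at -0.49 on day 0, and the early difference less that of day 0 was 0.05 (adjusted p = 0.956). That early call was lost in 9 of 14 fits with 1 array left out (BMP4 day 1, 2, 3, 5 or 6, untreated day 1, 2, 3 or 5), with adjusted p from 0.0502 to 0.113. It was lost as well with day as a block (adjusted p = 0.0508) and under other settings (adjusted p from 0.0528 to 0.0961).

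PDIA4, a larger disulfide isomerase of the ER lumen, had 7.05, 7.08 and 7.00 with BMP4 on days 1 to 3, against 7.50, 7.94 and 7.62 untreated. The early arms did not overlap, and the fall was 1.56-fold (log2 change -0.64, SE 0.16, adjusted p = 0.00701). On days 4 to 7 it had 7.30, 7.24, 7.38 and 7.603 with BMP4, against 7.99, 7.83, 7.56 and 7.55 untreated, and the arms overlapped. The late change of -0.35 (SE 0.14) passed narrowly (adjusted p = 0.0459). It was lost in 7 of 14 fits with 1 array left out (BMP4 day 2, 4, 5 or 6, untreated day 3, 4 or 5), with adjusted p from 0.0531 to 0.1499. The call was also lost with day as a block (adjusted p = 0.0700), with no filter on dim probes (adjusted p = 0.0646) and with days 1 to 2 as the early window (adjusted p = 0.0569). CALR and CANX, which hold glycoproteins by their sugars, and PDIA6, a further disulfide isomerase (-0.07, adjusted p = 0.631), did not pass late. PDIA6 also did not pass early, at -0.29 (adjusted p = 0.0866), but did with arrays centred on housekeeping genes, at -0.39 (adjusted p = 0.0305).

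**Figure D3:**
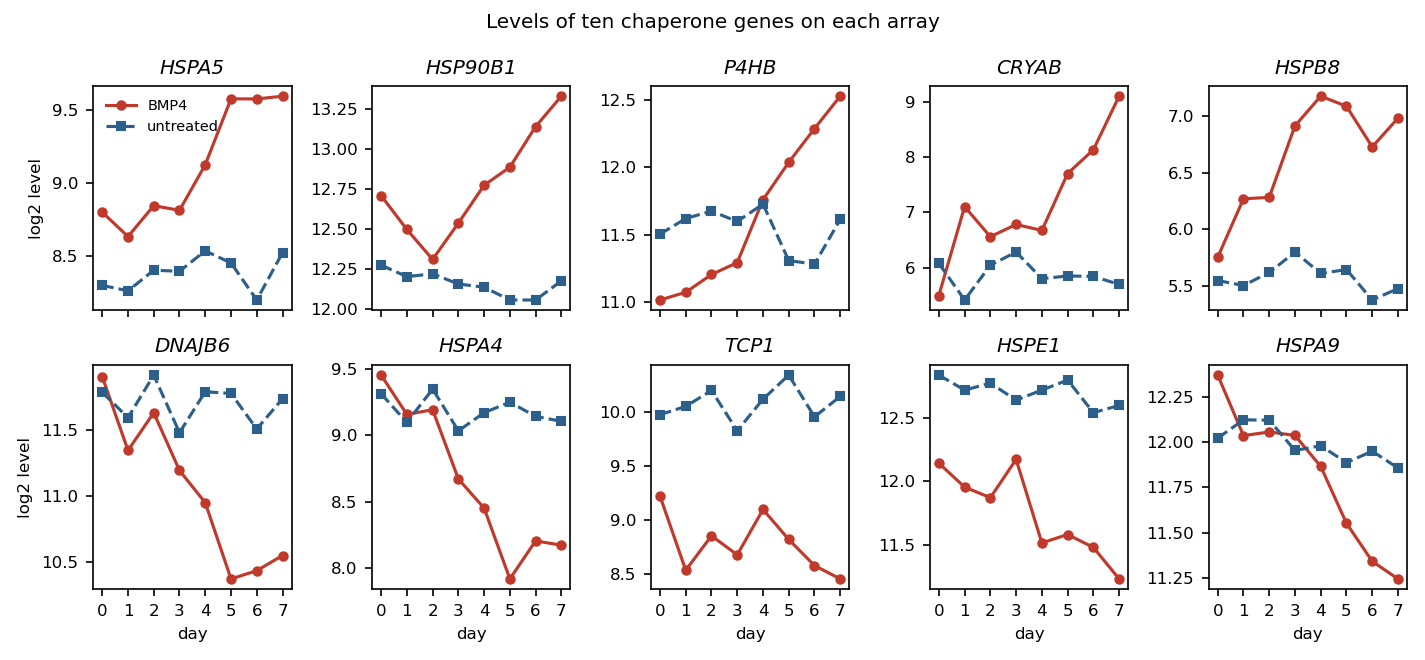
Log2 levels of 10 chaperones on each day with BMP4 and untreated, 1 point per array. HSPA5, HSP90B1, P4HB, CRYAB and HSPB8 lie higher with BMP4 on each of days 4 to 7, and DNAJB6, HSPA4, TCP1, HSPE1 and HSPA9 lie lower on those days.

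In the cytosol the 3 genes that rose were all among the 4 listed as small heat shock proteins, with a median late effect of 0.96. That list includes HSPB11, which is one by name only. CRYAB, alphaB-crystallin, which holds unfolded clients and binds intermediate filaments, had levels of 6.67, 7.70, 8.13 and 9.10 with BMP4 on days 4 to 7, against 5.80, 5.85, 5.84 and 5.70 untreated. The treated arrays climbed day by day, and the untreated ones stayed close together. The late change was 4.29-fold (log2 change 2.10, SE 0.34, adjusted p = 6.68e-05), the largest of the 42 genes, and 2.68 after subtraction of day 0 (adjusted p = 0.0225). The probe was dim, with a lowest intensity of 144.2 against a floor of 134.3. Over the alternatives tried the late log2 change ran from 1.17 to 2.68. Early, CRYAB had 7.10, 6.56 and 6.78 with BMP4, against 5.42, 6.04 and 6.28 untreated. Those arms did not overlap, yet the change of 0.90 did not pass (adjusted p = 0.0997). Left-out arrays of the late window, BMP4 day 4 or day 7, brought it to adjusted p = 0.0213 and 0.0305.

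HSPB8, which works with the co-chaperone BAG3 in clearing damaged proteins, had 7.17, 7.09, 6.73 and 6.98 with BMP4 on days 4 to 7, against 5.61, 5.64, 5.37 and 5.47 untreated. Its levels on days 1 to 3 were 6.27, 6.28 and 6.91 with BMP4, against 5.50, 5.62 and 5.80 untreated. No treated array overlapped an untreated one in either window. The rise was 2.77-fold late (log2 change 1.47, SE 0.17, adjusted p = 1.53e-06), 1.80-fold early (0.85, SE 0.19, adjusted p = 0.0034) and 1.26 late after subtraction of day 0 (adjusted p = 0.0266). HSPB8 too was dim (lowest intensity 142.9, floor 134.3), and over the alternatives its late log2 change ran from 0.63 to 1.56. HSPB11, which despite its name is a subunit of the intraflagellar transport complex, had 8.95, 8.92, 8.83 and 8.72 with BMP4 late, against 8.25, 8.57, 8.32 and 8.49 untreated. The arms were apart in both windows, with rises of 0.45 late (SE 0.12, adjusted p = 0.00558) and 0.44 early (SE 0.14, adjusted p = 0.0274). Its early call was lost without BMP4 day 3, untreated day 2 or untreated day 3 (adjusted p from 0.0616 to 0.147), with arrays centred on housekeeping genes (0.34, adjusted p = 0.0763) and with days 1 to 2 alone (0.24, adjusted p = 0.318). After subtraction of day 0 its late change was 0.82 (adjusted p = 0.0465). HSPB1, a small heat shock protein that also acts on actin filaments, had 11.56, 11.92, 12.14 and 12.44 with BMP4 late, against 11.90, 11.73, 11.56 and 11.41 untreated. The order of the arms turned between day 4 and day 5, and the late change of 0.37 did not pass (adjusted p = 0.0580) but did without BMP4 day 3, BMP4 day 4 or untreated day 4 (adjusted p from 0.00434 to 0.0483).

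The cytosolic HSP70 and HSP110 genes held 4 late falls among 7 (HSPA1A, HSPA4, HSPA2 and HSPH1) and 0 rises, with a median of -0.48. HSPA1A, the classic heat-inducible HSP70, had 6.28, 6.49, 6.07 and 5.81 with BMP4 on days 4 to 7, against 7.61, 7.31, 7.31 and 7.31 untreated. Its levels on days 1 to 3 were 5.19, 5.79 and 6.47 with BMP4, against 7.29, 7.17 and 7.26 untreated. Each treated array lay below all untreated ones. The falls were 2.33-fold late (log2 change -1.22, SE 0.22, adjusted p = 1.42e-04) and 2.68-fold early (-1.42, SE 0.25, adjusted p = 4.64e-04). HSPA1A was dim (lowest intensity 137.9, floor 134.3), and over the alternatives its late log2 change ran from -1.33 to -0.63. HSPA1B, its near-identical neighbour, had a late change of -0.14 (adjusted p = 0.482). Since both transcripts share almost all of their sequence, which of them each probe reads is uncertain.

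HSPA4, an HSP110-type exchange factor that resets HSP70, had 8.45, 7.92, 8.21 and 8.17 with BMP4 late, against 9.17, 9.25, 9.14 and 9.11 untreated. Same-day differences ran from -0.72 on day 4 to -1.33 on day 5, without overlap. The fall was 1.97-fold (log2 change -0.98, SE 0.14, adjusted p = 1.16e-05), and -1.12 after subtraction of day 0 (adjusted p = 0.0171). Early the change was -0.15 (adjusted p = 0.505), a second probe gave -1.28 early and -1.34 late, and the mean of both passed early at -0.71 (adjusted p = 0.00358). HSPA2, an HSP70 best known from the testis, had 8.44, 8.89, 8.78 and 9.13 with BMP4 late, against 9.78, 9.73, 9.53 and 9.31 untreated. On days 1 to 3 it had 9.21, 9.05 and 8.99 with BMP4, against 10.003, 9.92 and 9.97 untreated. The arms did not overlap in either window, and the same-day difference was -1.35 on day 4 and -0.18 on day 7. Its falls were 1.72-fold late (log2 change -0.78, SE 0.14, adjusted p = 1.31e-04) and 1.84-fold early (-0.88, SE 0.16, adjusted p = 5.35e-04).

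HSPH1, the heat-inducible HSP110, had 10.74, 10.16, 9.94 and 9.74 with BMP4 late, against 10.64, 10.43, 10.64 and 10.78 untreated. The arms overlapped through day 4, where BMP4 was the higher. The change of -0.48 passed (SE 0.17, adjusted p = 0.0242) but not without BMP4 day 6 or 7 or untreated day 6 or 7 (adjusted p from 0.0501 to 0.0935). HSPA8, the constitutive HSP70 (0.08, adjusted p = 0.679), and HSPA14, a ribosome-associated HSP70 (-0.30, adjusted p = 0.0752), did not pass late. HSPA14 did without BMP4 day 4 (-0.45, adjusted p = 0.00341) and with housekeeping centring (-0.37, adjusted p = 0.0395). After subtraction of day 0, HSPA4 passed, and HSPA1A (-0.69, adjusted p = 0.338), HSPA2 (-0.82, adjusted p = 0.0695) and HSPH1 (-0.68, adjusted p = 0.224) did not.

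Both cytosolic HSP90 genes fell late by small amounts. HSP90AB1, the constitutive form, had 12.82, 12.79, 12.84 and 12.77 with BMP4 on days 4 to 7, against 13.26, 13.12, 13.33 and 12.96 untreated, a fall of -0.36 (SE 0.09, adjusted p = 0.00357). The arms did not overlap, but on day 0 it stood at -0.43, and the late change less that was 0.07 (adjusted p = 0.847). HSP90AA1, the inducible form, had 13.52, 13.20, 13.05 and 13.05 with BMP4, against 13.77, 13.40, 13.40 and 13.48 untreated. The arms overlapped, and the change of -0.30 (SE 0.11, adjusted p = 0.0234) did not pass without BMP4 day 6, BMP4 day 7 or untreated day 4 (adjusted p from 0.0754 to 0.0945) or with no intensity trend (adjusted p = 0.0592). Its other probes gave -0.15 and, for a dim one, 1.09, and the mean of its detected probes was 0.21 (adjusted p = 0.160).

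Of 4 cytosolic J proteins DNAJB6 fell late and 0 rose, where 26.6% of all tested genes fell and 27.3% rose. The share of falls was thus near the background. DNAJB6, which keeps aggregation-prone proteins soluble, had 10.95, 10.37, 10.43 and 10.55 with BMP4 on days 4 to 7, against 11.79, 11.77, 11.50 and 11.73 untreated. Each treated array lay well below the lowest untreated one. The fall was 2.18-fold (log2 change -1.13, SE 0.13, adjusted p = 2.14e-06) and -1.24 after subtraction of day 0 (adjusted p = 0.00908). A second probe gave -0.67. DNAJA1 (0.02, adjusted p = 0.919), DNAJA2 (-0.21, adjusted p = 0.0757) and DNAJB1 (-0.24, adjusted p = 0.239), which recruit HSP70 to its clients, did not pass. DNAJA2 did with arrays centred on housekeeping genes (-0.28, adjusted p = 0.0281) and without BMP4 day 1 or BMP4 day 4 (adjusted p from 0.0427 to 0.0468). An exact match of the heat shock element stands in 3 of 15 cytosolic promoters (20%), those of HSPA8, DNAJA1 and DNAJB6. The share over all 27305 promoters was 133 (0.487%), and 0 promoters of the other compartments held a match. The element was chosen for its known tie to heat shock genes, so its share here could be foreseen. Forms that depart from these letters were not searched. A promoter without a match, such as that of HSPA1A, may therefore still hold the element. DNAJB6 is shown because it fell late while the other two did not pass, at chr7:157336754-157337053 on the plus strand of GRCh38.p14, from RefSeq, with the element in capitals.
DNAJB6: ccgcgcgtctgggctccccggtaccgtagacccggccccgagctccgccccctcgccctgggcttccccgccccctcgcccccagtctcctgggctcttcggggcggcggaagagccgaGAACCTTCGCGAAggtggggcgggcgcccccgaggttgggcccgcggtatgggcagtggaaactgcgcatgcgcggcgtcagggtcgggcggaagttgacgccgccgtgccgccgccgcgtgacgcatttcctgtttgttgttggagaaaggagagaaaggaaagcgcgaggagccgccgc

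**Figure D4:**
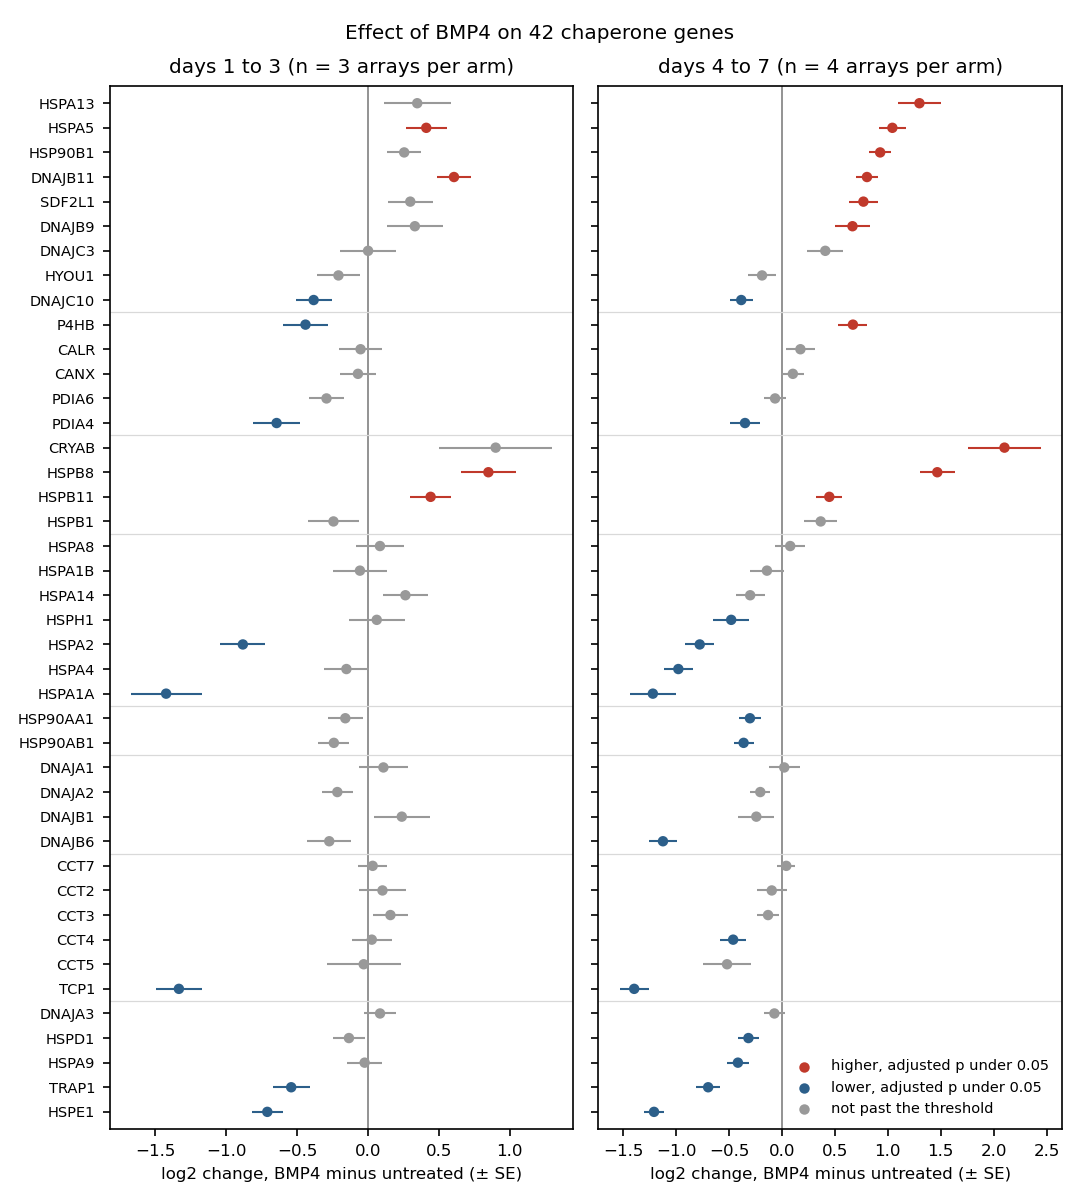
Early and late effect (BMP4 minus untreated, log2) of each of the 42 tested chaperones, grouped by family and compartment, on axes of different range, with bars for the standard error and colour for an adjusted p under 0.05. The late effects run from -1.40 for TCP1 to 2.10 for CRYAB, and 10 of 14 ER genes lie above 0, against 0 of 5 mitochondrial genes.

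In the CCT chaperonin, TCP1 and CCT4 fell late among 6 subunits, and 0 rose. Over all tested genes 26.6% fell and 27.3% rose, so the share of CCT falls was near the background. TCP1, the alpha subunit, had 9.10, 8.82, 8.58 and 8.46 with BMP4 on days 4 to 7, against 10.12, 10.34, 9.95 and 10.14 untreated. Early it had 8.54, 8.85 and 8.68 with BMP4, against 10.05, 10.20 and 9.82 untreated. The arms were far apart in both windows, with falls of 2.64-fold late (log2 change -1.40, SE 0.14, adjusted p = 3.22e-07) and 2.52-fold early (-1.33, SE 0.16, adjusted p = 1.62e-05). TCP1 was lower by -0.75 on day 0 too, and its late change less that was -0.65 (adjusted p = 0.151). Its other probes gave -0.97 and -0.93 late.

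CCT4, the delta subunit, had 7.55, 7.46, 7.42 and 7.21 with BMP4 late, against 7.94, 7.69, 7.89 and 7.97 untreated. The arms did not overlap, and the fall was 1.38-fold (log2 change -0.46, SE 0.12, adjusted p = 0.00448) and -0.82 after subtraction of day 0 (adjusted p = 0.0462). CCT5, the epsilon subunit, had a late change of -0.52 that did not pass (SE 0.23, adjusted p = 0.0603). It passed without BMP4 day 4 (-0.78, adjusted p = 0.00129), with day as a block (adjusted p = 0.0362) and with housekeeping centring (-0.59, adjusted p = 0.0410), and after subtraction of day 0 it stood at -1.92 (adjusted p = 0.0145), since it was higher by 1.40 in the BMP4 arm on day 0. CCT2 (-0.10), CCT3 (-0.13) and CCT7 (0.04) did not pass late by their brightest probes. Other probes of CCT3 (-1.07) and CCT7 (-0.32 and -0.76) gave lower values. With the mean of detected probes CCT3 passed late at -0.60 (adjusted p = 1.54e-05) and CCT7 at -0.35 (adjusted p = 0.00175). Across the 6 subunits, which sit in the same ring, the late change by the brightest probe ran from -1.40 to 0.04.

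Of the 5 mitochondrial chaperones 4 fell late (HSPE1, TRAP1, HSPA9 and HSPD1) and 0 rose. HSPE1, the lid of the mitochondrial chaperonin, had 11.52, 11.58, 11.48 and 11.23 with BMP4 on days 4 to 7, against 12.72, 12.80, 12.54 and 12.60 untreated. On days 1 to 3 it had 11.95, 11.87 and 12.17 with BMP4, against 12.72, 12.77 and 12.64 untreated. The arms did not overlap in either window, and the gap was wider late. The falls were 2.31-fold late (log2 change -1.21, SE 0.09, adjusted p = 2.11e-08) and 1.64-fold early (-0.71, SE 0.11, adjusted p = 1.44e-04). A second, dimmer probe gave -2.56 late. On day 0 HSPE1 stood at -0.69, and the late change less that was -0.52 (adjusted p = 0.0908).

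HSPD1, the chaperonin barrel that HSPE1 closes, had 13.12, 12.84, 12.81 and 12.68 with BMP4 late, against 13.40, 13.19, 13.10 and 13.02 untreated. Both arms declined over these days and overlapped, while the same-day differences stayed between -0.35 and -0.29. The fall was 1.25-fold (log2 change -0.32, SE 0.10, adjusted p = 0.0097) and -0.74 after subtraction of day 0 (adjusted p = 0.0225). Its other 3 probes gave -0.72, -0.67 and -1.33, and the mean of its probes passed early at -0.47 (adjusted p = 0.00452). HSPD1 and HSPE1 are neighbours on chromosome 2, transcribed away from each other from starts 105 bases apart in RefSeq. Their late effects by the brightest probes were -0.32 and -1.21, and the difference between these was not tested.

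HSPA9, the mitochondrial HSP70 that pulls proteins through the import channel, had 11.87, 11.55, 11.34 and 11.24 with BMP4 late, against 11.98, 11.89, 11.95 and 11.86 untreated. Day 4 with BMP4 overlapped the untreated range and the later days lay below it. The fall was 1.34-fold (log2 change -0.42, SE 0.11, adjusted p = 0.00328), and -0.77 after subtraction of day 0 (adjusted p = 0.0335). TRAP1, the mitochondrial HSP90, had 9.80, 9.68, 9.80 and 9.53 with BMP4 late, against 10.43, 10.26, 10.44 and 10.49 untreated. Early it had 10.12, 10.16 and 9.82 with BMP4, against 10.55, 10.36 and 10.82 untreated. The arms were apart in both windows (late -0.70, SE 0.11, adjusted p = 6.07e-05, early -0.54, SE 0.13, adjusted p = 0.00506), but TRAP1 stood at -0.85 on day 0, and less that its late change was 0.15 (adjusted p = 0.712). With days 1 to 2 alone its early change was -0.31 (adjusted p = 0.128). DNAJA3, the mitochondrial J protein, did not pass (-0.07, adjusted p = 0.551).

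The course within each arm was taken from the same fit, with days 4 to 7 set against days 1 to 3 of that arm and no use of the day 0 arrays for the difference. With BMP4, 7 chaperones rose and 6 fell, against a background of 12.8% of all genes rising and 13.7% falling. All 14 ER genes had a change above 0 within the BMP4 arm (median 0.29), against 6207 of all 13395 genes. In the untreated arm 7 of 14 ER genes did. The early window includes a low day 1, when the centred ER median with BMP4 was -0.29, against 0.045 on day 0. DNAJC3, DNAJC10, HYOU1, CANX and PDIA4 had a late mean with BMP4 below their own level on the 1 array of day 0. Of the ER genes 4 passed: P4HB (0.96, adjusted p = 2.13e-04), HSPA5 (0.71, adjusted p = 0.00108), HSPA13 (0.71, adjusted p = 0.0249) and HSP90B1 (0.58, adjusted p = 0.001). CRYAB (1.09, adjusted p = 0.0395), HSPB1 (0.73, adjusted p = 0.00449) and HSPB8 (0.51, adjusted p = 0.0481) rose too. HSPA4 (-0.82, adjusted p = 6.61e-04), DNAJB6 (-0.81, adjusted p = 6.12e-04), HSPH1 (-0.64, adjusted p = 0.0169), HSPE1 (-0.55, adjusted p = 8.44e-04), HSPA9 (-0.54, adjusted p = 0.00251) and HSPD1 (-0.38, adjusted p = 0.0119) fell. The mitochondrial median within the BMP4 arm was -0.38 and the CCT median -0.32. Without BMP4 day 4 the number of chaperones that fell within the arm was 12, without BMP4 day 2 it was 4, and without BMP4 day 2 or BMP4 day 7 the number that rose was 4. The spread is shared between the arms, and leaving out untreated day 4, 5 or 6 brought the number that rose to 5. In the untreated arm 0 of 42 chaperones passed in limma between the same windows, with 1 at an unadjusted p under 0.05. Over all genes there 0.0747% rose and 0% fell, and 1009 genes were at an unadjusted p under 0.05.

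The difference between the late and the early effect was itself tested. It passed for 3 chaperones upward, against 4.93% of all genes, and for 3 downward, against 4.31%. P4HB (1.11, SE 0.21, adjusted p = 0.00449), HSP90B1 (0.67, SE 0.16, adjusted p = 0.0130) and HSPA5 (0.63, SE 0.19, adjusted p = 0.0453) had the higher effect late, and all 3 belong to the ER. DNAJB6 (-0.85, SE 0.20, adjusted p = 0.0147), HSPA4 (-0.83, SE 0.21, adjusted p = 0.0191) and HSPE1 (-0.50, SE 0.14, adjusted p = 0.0362) had the lower effect late. The difference of HSPA4 rests on its brightest probe, as its second probe gave -1.28 early and -1.34 late. With the mean of detected probes 2 chaperones passed downward. With 1 array left out the numbers that passed ranged from 2 to 6 upward and from 1 to 6 downward.

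Other genes of protein folding were read from lists of known function, chosen with earlier results of these data known. Of 25 sensors and targets of the unfolded protein response and ER folding factors (a list that also holds HSPBAP1, which binds a small heat shock protein) 22 were tested. In the late window 14 rose and 2 fell (median 0.62), against 27.3% and 26.6% of all tested genes. SIL1, like HYOU1 an exchange factor of BiP, rose by 2.04 (SE 0.16, adjusted p = 2.29e-08), the disulfide isomerase PDIA5 by 1.35 (SE 0.15, adjusted p = 1.04e-06) and DDIT3, the stress-induced factor CHOP, by 1.204 (SE 0.41, adjusted p = 0.0186). The list's falls were EIF2AK3, the sensor kinase PERK (-0.79, SE 0.25, adjusted p = 0.0124), and DERL3, a factor of ER-associated degradation (-0.48, SE 0.19, adjusted p = 0.0415). Both were dim, with late mean levels of 5.33 and 5.12 with BMP4, against 6.12 and 5.60 untreated. After subtraction of day 0, 4 rose and 0 fell, against 8.92% and 10.6%.

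Among 21 heat shock factors and co-chaperones of HSP70 and HSP90 17 were tested, and 2 rose and 10 fell late (median -0.43). The shares of 27.3% and 26.6% over all tested genes apply to this and the next lists too. BAG3, the partner of HSPB8, rose by 1.94 (SE 0.11, adjusted p = 1.66e-09). PTGES3, the HSP90 co-chaperone p23, fell by 1.91 (SE 0.15, adjusted p = 3.13e-08), and CHORDC1, another HSP90 co-chaperone, fell by 1.08 (SE 0.16, adjusted p = 1.94e-05). Of 7 tested CCT and prefoldin subunits outside the 43 genes 1 rose, PFDN1 (0.51, SE 0.11, adjusted p = 7.57e-04), and 1 fell, CCT6A (-0.81, SE 0.11, adjusted p = 1.37e-05), and of 8 mitochondrial proteases and co-chaperones 1 rose and 3 fell. The 3 were GRPEL1, the exchange factor of HSPA9 (-0.63, SE 0.15, adjusted p = 0.00187), the import motor subunit TIMM44 (-0.53, SE 0.13, adjusted p = 0.00232) and the protease LONP1 (-0.51, SE 0.11, adjusted p = 8.07e-04). After subtraction of day 0 the co-chaperone list held 2 rises and 3 falls, the CCT and prefoldin list 0 of either, and the mitochondrial list 1 rise and 0 falls, against 8.92% and 10.6% over all genes.

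The choice of probe bears on these values. Of the 42 genes 14 have at least 1 further detected probe, 19 probes in all. Their late effects differed from those of the brightest probe by a median of 0.42 and by more than 0.5 for 7 probes, and the sign differed for 5 probes (CCT7 with 2, HSP90AA1, HSPA13 and HSPA8). For HSPE1, HSPD1, HSPA4, HSPA2, DNAJB6 and TCP1 each further probe was lower with BMP4 late, as the brightest one was.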

How the data were processed

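Gene expression was measured on 16 bead arrays, 8 with BMP4 and 8 untreated. The values are intensity values that the authors deposited in the series' value table. Per the labels' protocols, Trizol RNA was turned into biotinylated cRNA. The scanner and the normalization method were not given in the sources used here. From the values, the intensities are quantile normalized: the largest quantile gap between arrays is 1.23e-05 (log2), and the median is 128.3. A further deposited table with 32 columns matches no label and was not used, so neqc, which needs its detection p-values, was not run.

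Background was estimated from the low side of the intensity peak at 117.3 (SD 7.65). The 99th percentile of the mirrored values, 134.3, was the detection floor, and 42.6% of the probes lay above it on each array. Intensities were corrected by normexp in limma 3.58.1 (R 4.3.3), 16 was added and log2 taken, which understates changes of dim genes. A gene needed its probe above the floor on at least 3 arrays. The platform annotation pairs 30113 of 47323 probes with 1 symbol, 8 with several and 17202 with none, and 30074 matched the RefSeq table by gene identifier. A gene was read from its brightest probe. One linear model, of 6 means (arm by window), was fitted to all 16 arrays (lmFit, eBayes with trend) and checked on made-up data. Tests are two-sided. The number of arrays limits the precision.

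The chaperones, lists and motifs were chosen with earlier results of these data known. Full values are given for up to 4 genes per group with the largest called change, and of each other list the 3 largest late changes are named. Alternatives were no background correction, an offset of 50, other filters on dim probes, the mean of detected probes, housekeeping centring, day as a block, subtraction of day 0, days 1 to 2 as the early window, no trend, and each array left out. Arrays of both arms share the labelled day, and the labels do not say whether they were handled together. Correlations of their deviations ran from -0.04 to 0.28 over days 1 to 7.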

Additional observations from a re-analysis of the deposited data

Results flagged for a closer look

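Among 84 groups of 4 arrays (42 chaperones, days 4 to 7 in each arm), 4 held an array far from the other 3 by Dixon's test. Chance marks about 1 in 20 such groups. HSPA5 with BMP4 stood at 9.127 on day 4, against 9.578 to 9.597 on the other days. DNAJC3 with BMP4 stood at 5.318 on day 6, against 5.772 to 5.795, and DNAJC10 with BMP4 at 9.282 on day 6, against 8.836 to 8.885. HSPA1A untreated stood at 7.608 on day 4, against 7.307 to 7.31 on days 5 to 7.

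For 6 chaperones the late effect differed from the early effect in a test of the difference itself. The difference, late minus early, was 1.11 for P4HB (adjusted p = 0.00449), 0.67 for HSP90B1 (0.0130) and 0.63 for HSPA5 (0.0453). It was -0.85 for DNAJB6 (adjusted p = 0.0147), -0.83 for HSPA4 (0.0191) and -0.50 for HSPE1 (0.0362). All are by the brightest probe, and a second probe of HSPA4 gave -1.28 early and -1.34 late. The changing mix of cell states over the days, shown by the marker sums, moves with these differences, and its part was not tested.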

How the results depend on the processing

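With the day 0 difference subtracted, 315 genes were called early (3935 without subtraction) and 2611 late (7225). Of chaperones 0 rose and 0 fell early (4 and 8 without subtraction), and 5 rose and 6 fell late (10 and 15), the 6 including CCT5, which is not among the 15. Compartment medians with it were -0.34 for CCT early (0.03 without it), -0.23 for mitochondria early, -0.31 for the cytosol late and 0.22 for the ER late. Called single genes whose sign turned were, early, TRAP1 (0.31), HSPA5 (-0.0910), DNAJB11 (-0.0284) and P4HB (0.0472), and late, HSP90AB1 (0.0699) and TRAP1 (0.15). The correction rests on 1 array per arm. With days 1 to 2 as the early window 2365 genes, 2 rising and 5 falling chaperones were called early. Housekeeping centring gave 2 rising chaperones early, and medians of -0.23 (mitochondria early) and -0.31 (cytosol late). Averaging detected probes gave -0.47 and -0.70 for mitochondria early and late and 0.43 for the ER late, and turned CCT7 (-0.32 early, -0.35 late) and HSP90AA1 (0.21 late). Without background correction the late ER median was 0.30, and with an offset of 50 it was 0.40, while the untreated drift held 1 and 4 genes in place of 10. The cause was not tested. Late calls of P4HB, CRYAB, HSPB8, HSPB11, DNAJB6, HSPA4, CCT4, HSPA9, HSPD1 and SDF2L1 held under each of the 24 alternatives.

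With 1 array left out, 2879 to 4385 genes were called early and 6586 to 7392 late. Rising chaperones numbered 2 to 5 early and 10 to 11 late, and falling ones 6 to 8 early and 12 to 17 late. The difference between late and early effects held 678 (without BMP4 day 2) to 2401 genes (without BMP4 day 4), with 2 to 6 chaperones upward and 1 to 6 downward. The untreated drift held 1 (without untreated day 1) to 28 genes (without untreated day 4). The BMP4 drift held 2287 to 4440 genes, with 4 to 7 chaperones rising (4 without BMP4 day 2 or 7) and 4 to 12 falling (12 without BMP4 day 4). Medians ranged from -0.16 to 0.20 (cytosol early), -0.03 to 0.11 (CCT early), -0.17 to -0.10 (mitochondria early), -0.10 to 0.10 (ER early), -0.36 to -0.17 (cytosol late), -0.37 to -0.24 (CCT late), -0.54 to -0.33 (mitochondria late) and 0.45 to 0.56 (ER late).

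With day as a replicate block 3990 genes were called early and 7188 late. HSPA5 early (adjusted p = 0.0531), P4HB early (0.0508) and PDIA4 late (0.0700) no longer passed, and CCT5 late did (0.0362). The drifts could not be fitted with that block.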
